A study of Mus musculus with 8 samples.

Results

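The genes described here build, supply or regulate cilia, the hair-like extensions of the cell surface. They were chosen by name: Foxj1, plus every gene in the authors' deposited comparison table whose symbol starts with Cfap, Dnah, Dnai, Rsph, Bbs or Ift followed by a digit. The rule found 48 of the 14432 genes in that table. Besides Foxj1 these are 25 motile axoneme genes (Cfap, Dnah, Dnai and Rsph), 14 intraflagellar transport genes (Ift) and 8 Bardet-Biedl genes (Bbs). The table lists no gene with a mean normalized count under 9.49, so membership depends on expression. A further 33 genes with these name starts lay outside it, with 0 to 60 counts summed over all libraries (median 6.0).

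Whole liver of male C57BL/6 mice was measured by RNA sequencing, with 4 libraries after IgG and 4 after an antibody against CD47, named antiCD47 here. Both treatments shared a 16-week diet rich in fructose, palmitate and cholesterol that produces steatohepatitis, and both were injected into the abdomen between weeks 8 and 16 (200 µg of anti-CD47 per mouse). CD47 is the surface protein that restrains engulfment by macrophages, and an injected antibody can reach any cell that carries it. The series gives 7 to 8 mice per treatment, no age, and no untreated or chow-fed group, and no label ties a library to an animal, so p-values measure the spread between these libraries, which may be technical. Total counts were 43691472 to 55477484 per library. Cd47 itself was at 72.8 ± 4.18 CPM in IgG and 80.3 ± 7.34 CPM in antiCD47 (CPM, the count as a share of the scaled library size; mean ± SD, n = 4), with an edgeR adjusted p of 0.24. That level does not check an antibody against the protein.

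A cilium is built on an axoneme of doublet microtubules. In motile cilia, dynein arms slide the doublets past each other, and radial spokes and a central apparatus control the beat. Intraflagellar transport complexes A and B carry cargo along the axoneme of every kind of cilium, and the BBSome, an assembly of Bardet-Biedl proteins, moves membrane proteins with them. FOXJ1 is the master transcription factor of motile cilia, and RFX factors bind X-box sites at genes of motile and primary cilia alike. Hepatocytes, which give most liver RNA, carry no cilium, whereas cholangiocytes, the cells that line bile ducts, carry a non-motile primary cilium that senses bile flow.

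Promoter sequence was available for 39 of the 48 genes (RefSeq, mouse build GRCm38.p6, 250 bases before to 50 after the start of transcription), the exceptions being Cfap54, Cfap91, Cfap97, Dnai4, Foxj1, Ift122, Ift80, Ift81 and Rsph4a. Letters common to X-box sites, GTNNC and GNNAC with 4 letters between them on either strand, stood in 13 of these 39 (33.3%), against 8.13% of the 27025 genes in the promoter table. By group they stood in 8 of 20 motile, 2 of 11 transport and 3 of 8 Bbs promoters. The X-box half-site GTTGCC, which can lie inside such a match, stood in 16 of 39 (41.0%, against 14.1%). The forkhead core GTAAACA, the kind of letters a FOXJ1-type factor binds, stood in 1 of 39 (2.56%, against 4.05%), the promoter of Cfap20. A match is a description of letters and not of a bound site.

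The matches below are shown for genes whose expression is described in what follows. Capitals mark the X-box letters, read 5′ to 3′ on the strand of the gene. In Cfap20, capitals mark the forkhead core and the reverse complement of the half-site.
Rsph9 (minus strand, chr17:46144193-46144226): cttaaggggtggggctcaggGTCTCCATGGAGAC
Cfap44 (plus strand, chr16:44394752-44394798): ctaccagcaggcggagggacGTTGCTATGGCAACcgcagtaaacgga
Cfap298 (minus strand, chr16:90935004-90935057): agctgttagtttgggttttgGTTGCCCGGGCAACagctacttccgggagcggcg
Ift57 (plus strand, chr16:49699187-49699275): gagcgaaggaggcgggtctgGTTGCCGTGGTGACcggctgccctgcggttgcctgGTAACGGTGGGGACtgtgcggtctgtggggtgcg
Bbs7 (minus strand, chr3:36613477-36613530): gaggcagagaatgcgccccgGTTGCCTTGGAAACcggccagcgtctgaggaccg
Cfap20 (minus strand, chr8:95434938-95435071): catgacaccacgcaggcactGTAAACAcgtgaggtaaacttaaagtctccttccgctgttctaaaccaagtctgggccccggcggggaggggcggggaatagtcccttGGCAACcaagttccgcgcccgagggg

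In the antiCD47 livers 4 of the 46 genes that could be tested fell and none rose: Foxj1, the radial spoke gene Rsph9, the outer dynein arm gene Dnah5 and the doublet microtubule gene Cfap20 (edgeR quasi-likelihood test, two-sided, Benjamini-Hochberg adjusted p under 0.05 over 15472 genes). That is 8.70% of the tested members, against 10.8% of all genes tested, of which 5.4% fell. The share called in either direction was thus not above that of all genes. The share that fell, 8.70% from 4 genes, was above the 5.4% of all genes that fell. Of these 4, Dnah5 passed the filter on low counts through its IgG libraries alone, so its call adds no support to that share. Dnah2 and Cfap44 had too few counts for the test. Of the 46, 39 had a fitted log2 fold change below 0 (84.8%, against 51.0% of all genes), and the median was -0.27, against -0.006 over all genes. At an unadjusted p under 0.05, 17 were lower and 2 higher (background 16.0% lower and 16.6% higher). The 4 libraries of the 2 treatments did not overlap for 11 members that were lower and 2 that were higher in antiCD47, and 12 of these 13 were tested (26.1% of 46, against 19.6% of all genes tested). Over all genes tested that background was 10.1% lower and 9.51% higher. Genes that belong to 1 structure are not independent of each other, and no test of the list was made.

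Of the 46 tested members, Foxj1 had the largest fitted change. It stood at 7.17, 4.97, 5.25 and 8.75 CPM in IgG 1 to 4 and at 3.66, 1.01, 1.64 and 1.20 CPM in antiCD47 1 to 4. The treatments did not overlap, and antiCD47 1 lay apart from the 3 lower libraries of its treatment, between them and the lowest IgG library. Means were 6.53 ± 1.77 and 1.88 ± 1.22 CPM (SD, n = 4), and the fitted log2 difference was -1.79 ± 0.38 (SE) with an edgeR adjusted p of 0.0258. The call rested on 1402 counts over the IgG and 368 over the antiCD47 libraries. In whole tissue, fewer cells of a type and less RNA per cell cannot be told apart, here or for the genes that follow.

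Among the motile axoneme genes 3 of 23 tested fell (13.04%, against 5.4% of all genes) and none rose (background 5.44%). Of these 3, Dnah5 passed the filter on low counts through its IgG libraries alone, so its call adds no support to that share. A fitted value below 0 was found for 19 of 23 (82.61%, against 51.0% of all genes), with a median of -0.38. Rsph9, a radial spoke head protein, was at 0.652, 0.546, 0.652 and 1.07 CPM in IgG 1 to 4 and at 0.256, 0.262, 0.225 and 0.347 CPM in antiCD47 1 to 4. Every antiCD47 library lay below every IgG library, and IgG 4 was the highest. The log2 fold change was -1.42 ± 0.29 (SE), with an edgeR adjusted p of 0.0252. Counts went from 158 to 52, and the scaled ratio was 0.366 (0.262 to 0.504, 95% exact binomial, counting error only).

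Dnah5, a heavy chain of the outer dynein arm that powers the beat, had 21, 19, 21 and 24 counts in IgG 1 to 4 and 8, 2, 9 and 5 counts in antiCD47 1 to 4. The IgG libraries were close together and all above the antiCD47 libraries. In CPM this was 0.398 ± 0.0408 against 0.124 ± 0.0628 (SD, n = 4), or -1.66 ± 0.38 on the log2 scale (SE), with an edgeR adjusted p of 0.0304. The counting interval of the ratio was 0.191 to 0.499. Dnah5 passed the filter on low counts through its IgG libraries alone, so its entry into the test depended on the treatment in which it was higher. Other low genes were tested without a called difference, such as Dnah11 with 40 counts in IgG and 27 in antiCD47. Fitted without that filter its edgeR adjusted p was 0.0454.

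Cfap20, a protein of the doublet microtubules of motile and primary cilia, was far more abundant. It stood at 19.6, 15.9, 23.6 and 19.8 CPM in IgG 1 to 4 and at 13.9, 10.4, 9.60 and 14.2 CPM in antiCD47 1 to 4. The treatments were separated by a narrow gap, between antiCD47 4 and IgG 2. The fitted log2 value was -0.72 ± 0.16 (SE), with an edgeR adjusted p of 0.0276.

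All 4 calls were lost in edgeR when IgG 1, IgG 3, IgG 4 or antiCD47 3 was left out, with adjusted p-values of 0.0642 to 0.0826 for Foxj1, 0.0636 to 0.0839 for Rsph9, 0.0722 to 0.0853 for Dnah5 and 0.072 to 0.0811 for Cfap20. Over all genes, 174, 92, 2 and 21 were called in those fits. Their highest unadjusted edgeR p was 0.00345 for Foxj1, 0.00362 for Rsph9, 0.00526 for Dnah5 and 0.00359 for Cfap20. Without antiCD47 2, Rsph9 (0.0522) and Cfap20 (0.0563) did not pass by edgeR adjusted p, and without antiCD47 4 Dnah5 did not (0.0505). None of these 4 genes shares exon sequence with another gene in the GENCODE M21 annotation.

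**Figure D1:**
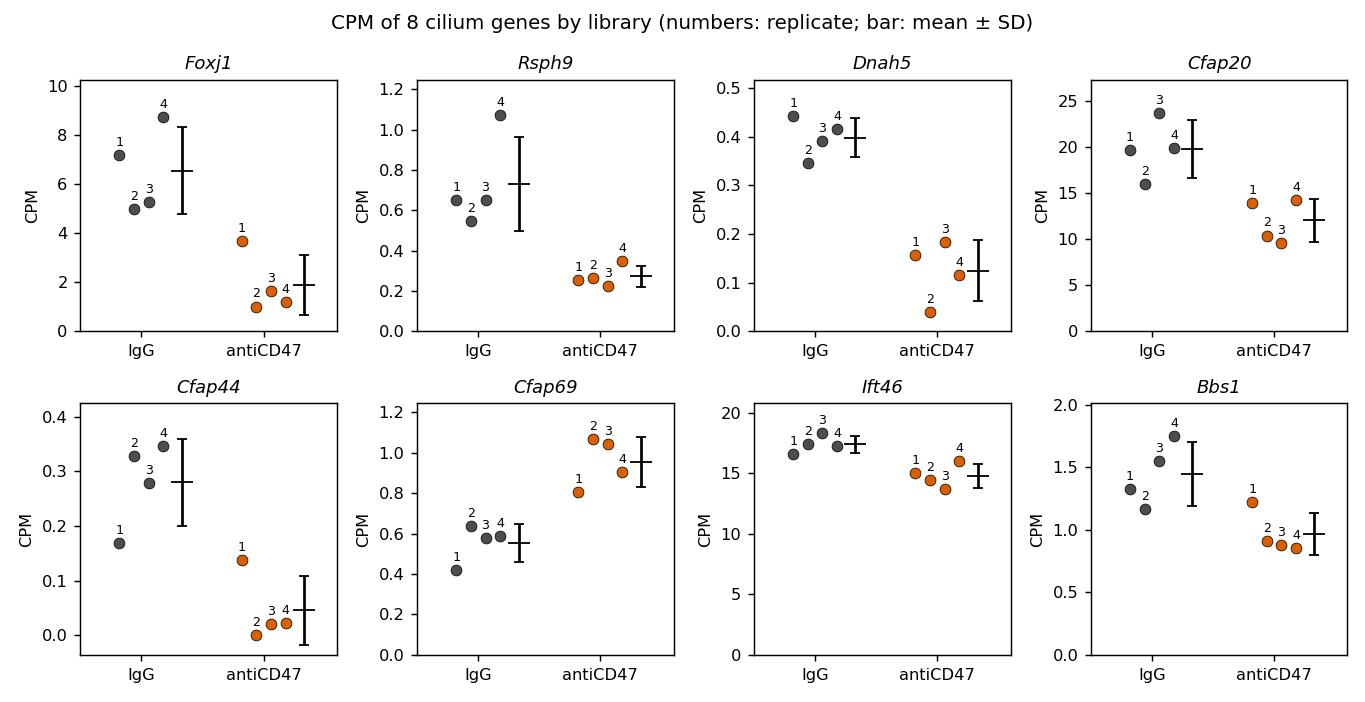
CPM (count share of the scaled library size) of 8 cilium genes in each library; points are libraries numbered by replicate, grey for IgG and orange for antiCD47, and bars are the mean ± SD of 4. The treatments do not overlap in 7 of the panels; Bbs1 overlaps through antiCD47 1 at 1.22 CPM, and Cfap69 is the panel with higher antiCD47 libraries.

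Cfap44, a component that tethers inner dynein arms, is described because of its low counts in antiCD47, and was chosen after its values were seen. It had 8, 18, 15 and 20 counts in IgG 1 to 4 and 7, 0, 1 and 1 in antiCD47 1 to 4. The treatments did not overlap, although antiCD47 1 came within 1 count of IgG 1. The ratio of scaled counts was 0.164 (95% counting interval 0.0716 to 0.332). Fitted without the filter on low counts it was at -2.54 ± 0.73 (log2, SE; edgeR adjusted p = 0.0554), with all 8 libraries. In a separate fit with the filter, antiCD47 1, the antiCD47 library with the most Cfap44 counts, was left out. Cfap44 then passed the filter through its IgG libraries alone and was at -4.10 ± 0.65 (edgeR adjusted p = 0.00665). Leaving out that library favours a low p, so this value adds no support.

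Cfap69, a protein needed for sperm flagella and olfactory cilia, went the other way. It was at 0.421, 0.637, 0.577 and 0.588 CPM in IgG 1 to 4 and at 0.807, 1.07, 1.04 and 0.903 CPM in antiCD47 1 to 4, without overlap. Its log2 fold change was 0.78 ± 0.22 (SE) and missed the threshold (edgeR adjusted p = 0.0518, and 0.0126 to 0.136 over 19 alternatives, 5 of which passed). In the authors' deposited table its adjusted p was 0.482.

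The other motile genes with no overlap were Cfap20dc (log2 -0.69), Cfap91 (-0.69), Cfap126 (-0.63) and Cfap410 (-0.36), with edgeR adjusted p-values of 0.0807 to 0.148. CFAP91 belongs to the radial spokes, CFAP126 helps basal bodies dock in multiciliated cells, and CFAP410 acts at the base of primary cilia. Several low genes had wide errors. The dynein heavy chain gene Dnah1 ran from 0.0745 to 0.610 CPM within IgG alone (log2 -0.17 ± 0.67), and the spoke head gene Rsph4a from 0.121 to 0.655 CPM within antiCD47 (log2 -0.17 ± 0.48). Neither passed (edgeR adjusted p = 0.878 and 0.832).

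Among abundant motile members, Cfap36 (log2 -0.11 ± 0.088), Cfap298 (-0.11 ± 0.071) and Cfap97 (0.049 ± 0.085) did not pass, with edgeR adjusted p-values of 0.326 to 0.717. In the gene models 44.2% of the exon bases of Cfap298, a dynein assembly factor, overlap a model on the opposite strand with 8 counts in all. The spoke stalk genes Rsph3a (15.9 ± 1.06 and 17.3 ± 1.80 CPM, log2 0.12 ± 0.090, edgeR adjusted p = 0.367) and Rsph3b (35.7 ± 3.38 and 33.5 ± 2.80 CPM, log2 -0.090 ± 0.087, edgeR adjusted p = 0.499) are near-identical copies, so the split of reads between them is uncertain, and the same holds for Dnah7b.

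None of the 14 transport genes passed in edgeR. At an unadjusted p under 0.05, 8 were lower (57.1%, against 16.0% of all genes) and 1 was higher (background 16.6%). DESeq2 called 2 of them, limma voom 0 and voom with quality weights 6. A fitted value below 0 was found for 13 of 14 (92.9%, against 51.0% of all genes), with a median of -0.27 and a range of -0.58 to 0.17.

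Complex A, which brings cargo back to the cell body, was represented by Ift122 (log2 -0.39 ± 0.13), Ift140 (-0.41 ± 0.16) and Ift43 (-0.43 ± 0.18), which had close estimates and edgeR adjusted p-values of 0.0782, 0.115 and 0.127. Ift122 was at 4.50, 4.26, 4.51 and 5.90 CPM in IgG 1 to 4 and at 3.99, 3.56, 3.34 and 3.71 CPM in antiCD47 1 to 4. The treatments did not overlap, and IgG 4 stood above the rest of its treatment.

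Complex B, which carries cargo to the tip, had 7 core members, all fitted below 0. Ift46 was at 16.6, 17.4, 18.3 and 17.2 CPM in IgG 1 to 4 and at 15.01, 14.4, 13.7 and 16.0 CPM in antiCD47 1 to 4. It showed no overlap and the smallest p of the transport genes (log2 -0.24 ± 0.073, edgeR adjusted p = 0.0639). Ift52 was at -0.27 ± 0.10 (edgeR adjusted p = 0.103), and Ift22, Ift27, Ift74, Ift81 and Ift88 lay between -0.35 and -0.15.

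Peripheral members of complex B spanned the full range of the transport genes. Ift57, whose promoter holds both capital runs shown above, had the lowest value, -0.58 ± 0.22 (edgeR adjusted p = 0.105). Ift20, which also works at the Golgi, was at 27.1, 27.2, 26.4 and 26.2 CPM in IgG 1 to 4 and at 27.5, 34.3, 28.9 and 30.0 CPM in antiCD47 1 to 4. The treatments nearly touched, at antiCD47 1 and IgG 2, and the value of 0.17 ± 0.076 (edgeR adjusted p = 0.147) became -0.015 with scaling by library totals alone. Ift80 was at -0.27 and Ift172 at -0.088.

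Of the 8 Bbs genes none passed in edgeR and none was free of overlap. At an unadjusted p under 0.05, 1 was lower (12.5%, against 16.0% of all genes). DESeq2 and limma voom called 0 and voom with quality weights 1. The 6 genes of BBSome subunits were all fitted below 0, and the 2 genes of chaperonin-like proteins that help assemble it, Bbs10 (0.073 ± 0.11, edgeR adjusted p = 0.668) and Bbs12 (0.11 ± 0.32, edgeR adjusted p = 0.838), were above 0. With scaling by library totals alone these 2 were at -0.11 and -0.093, so their sign depended on the scaling.

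Bbs1 was at 1.33, 1.16, 1.55 and 1.75 CPM in IgG 1 to 4 and at 1.22, 0.906, 0.881 and 0.857 CPM in antiCD47 1 to 4. Only antiCD47 1 reached the IgG range. The fitted log2 value was -0.58 ± 0.21 (SE), with an edgeR adjusted p of 0.0912. Bbs5 followed at -0.27 ± 0.13 (edgeR adjusted p = 0.18), then Bbs4 (-0.22), Bbs9 (-0.20), Bbs7 (-0.16) and Bbs2 (-0.11).

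**Figure D2:**
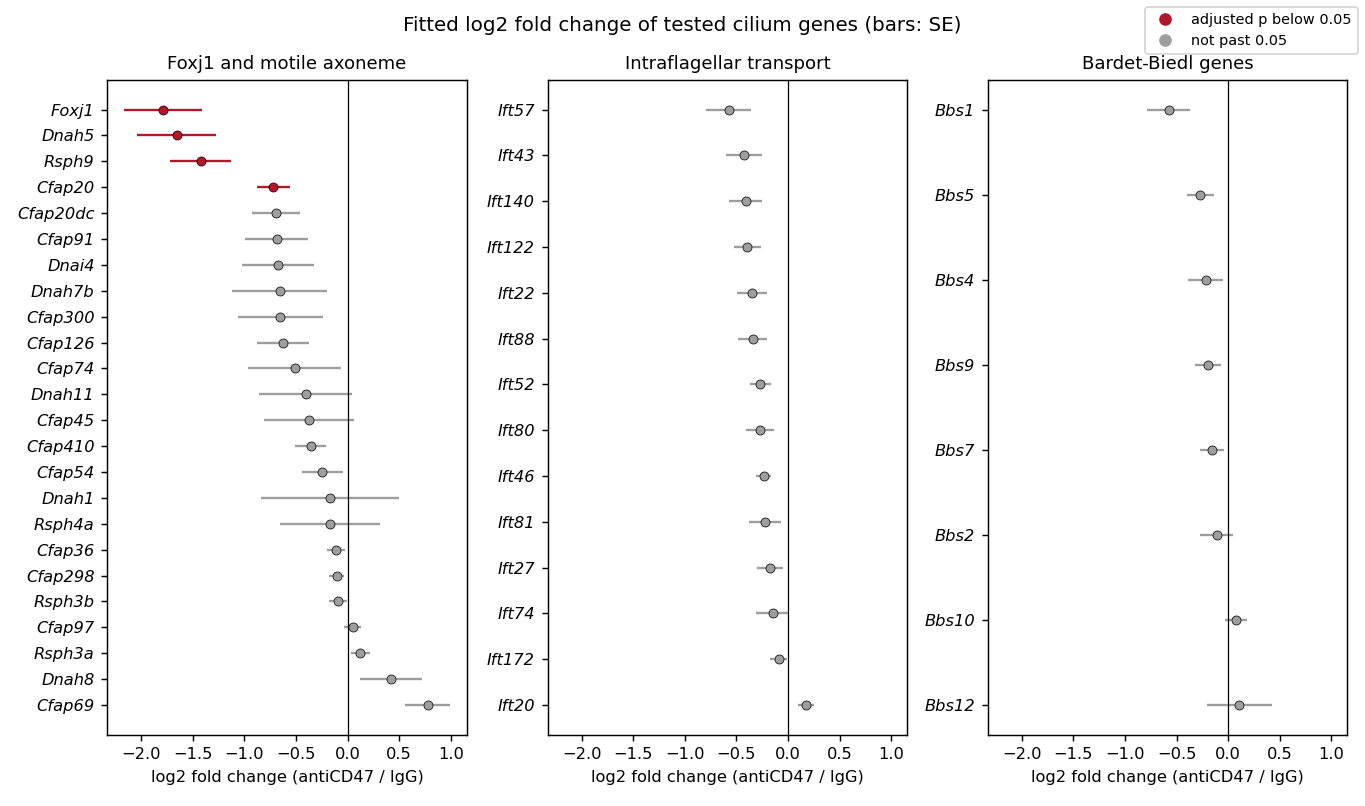
Fitted log2 fold change (antiCD47 over IgG, edgeR) of the 46 tested cilium genes in 3 panels; points are estimates, bars are 1 SE, and red marks an adjusted p under 0.05. Red points are Foxj1, Dnah5, Rsph9 and Cfap20, transport genes lie between -0.58 and 0.17, and Bbs genes between -0.58 and 0.11.

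The authors' deposited table gave 8 members past an adjusted p of 0.05, all with the sign that corresponds to lower in antiCD47 (18.4% of its 14432 genes passed, 8.68% lower). In the authors' deposited table the adjusted p was 0.000118 for Foxj1, 0.000361 for Cfap20, 0.00439 for Rsph9, 0.0112 for Dnah5, 0.0201 for Cfap44, 0.0358 for Bbs9, 0.0434 for Dnai4, an axonemal dynein chain, and 0.0472 for Cfap126. Bbs9 was at -0.20 ± 0.13 in the edgeR fit (edgeR adjusted p = 0.315), and Dnai4 at -0.67 ± 0.35 (edgeR adjusted p = 0.207). Dnai4 had 126 counts in IgG and 70 in antiCD47. It shares 1.78% of its exon bases with Mier1 on the opposite strand, which had 14339 counts in all. Whether reads of Mier1 were counted for Dnai4 was not tested. The sign in the authors' deposited table matched the fit for 45 of the 46 tested members, Rsph3a being the exception. Both come from the same libraries, and that sign was read by its match to the counts, so this match adds no separate support.

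Levels of different genes were compared per length, as TPM computed from the counts and the longest protein-coding transcript. In IgG the highest were Ift20 (45.7 ± 1.77), Rsph3b (31.0 ± 1.61), Ift52 (24.1 ± 2.00) and Cfap36 (17.0 ± 0.496). Cfap298 (15.3 ± 0.633) and Cfap20 (15.2 ± 2.90) followed and did not differ beyond their spread. Foxj1 was thirteenth of 48 at 4.88 ± 1.46. The 6 Dnah genes took the last 6 places, from 0.0499 ± 0.0309 (Dnah1) to 0.0241 ± 0.00282 (Dnah8), and Dnah5 at 0.0497 ± 0.00545 could not be told from its neighbour Dnah1.

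Summed over members, the 25 motile genes took 121.9 to 134.1 CPM in the IgG and 110.3 to 116.1 CPM in the antiCD47 libraries, without overlap. Most of that sum came from abundant genes. The 15 motile genes under 1 CPM summed to 4.77 to 7.59 CPM in IgG and 3.48 to 5.12 CPM in antiCD47, where the treatments overlapped. The transport genes summed to 127 to 134 CPM and 110 to 123 CPM without overlap, and the Bbs genes to 21.7 to 25.2 CPM and 19.5 to 22.0 CPM with overlap.

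**Figure D3:**
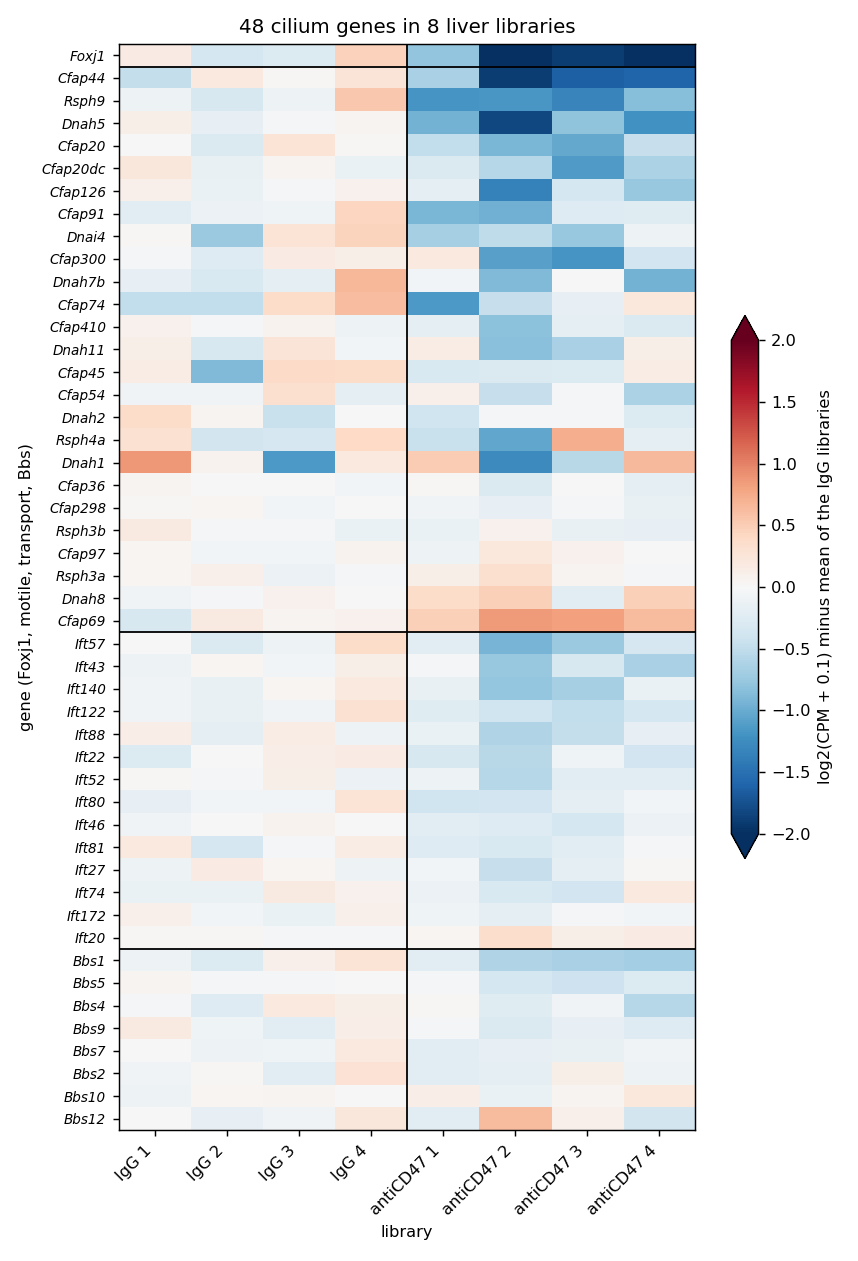
Heat map of the 48 cilium genes (rows, in the order Foxj1, motile, transport, Bbs) in 8 libraries (columns); colour is log2(CPM + 0.1) minus the mean of the IgG libraries, blue lower and red higher, with the scale ending at 2 in either direction. Foxj1, Cfap44, Rsph9, Dnah5 and Cfap20 are blue in every antiCD47 library, each antiCD47 library is blue in most rows, and Cfap69 is red in every antiCD47 library.

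Other genes of cilia were taken from lists of textbook members. Among 13 regulators of ciliogenesis 7 were tested. Rfx1 rose slightly, from 5.26 to 6.26 CPM in the IgG libraries to 7.02 to 7.90 CPM in the antiCD47 libraries (log2 0.37 ± 0.10, edgeR adjusted p = 0.0434), and the call was lost with scaling by library totals or the upper quartile, with no filter on low counts, without IgG 2 and antiCD47 2 together, and without IgG 1, IgG 3, IgG 4, antiCD47 2, antiCD47 3 or antiCD47 4. None fell in edgeR with all libraries, where 0 were lower at an unadjusted p under 0.05. Without antiCD47 4 edgeR called 1 lower, and voom with quality weights called 3. Rfx2 (-0.51 ± 0.28), Rfx3 (-0.42 ± 0.20) and Rfx4 (-0.73 ± 0.38) had edgeR adjusted p-values of 0.169 to 0.233. Mcidas and Gmnc, which start the multiciliated cell program above Foxj1, were at 0 counts in all 8 libraries, as were Cdc20b and Foxn4, and Trp73 had 1 count in IgG and 3 in antiCD47.

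Of 54 further motile axoneme genes, such as docking complex and tektin genes, 23 were tested, 1 fell and none rose (4.35% lower, against 5.4% of all genes), with a median of -0.65. The gene that fell was Enkur, of the axoneme and sperm flagellum (log2 -2.95 ± 0.67, edgeR adjusted p = 0.0291, counting interval of the ratio 0.0688 to 0.216). It had 32, 25, 26 and 49 counts in IgG 1 to 4 and 11, 0, 1 and 3 counts in antiCD47 1 to 4. Enkur too passed the filter on low counts through its IgG libraries alone. As for Cfap44, antiCD47 1 was above the other antiCD47 libraries. The outer arm docking genes Odad4 (-1.21) and Odad1 (-1.28) and Iqcg (-0.71) did not pass (edgeR adjusted p = 0.0554 to 0.0635) although their libraries did not overlap. The count of 1 became 5 by DESeq2, 7 with library totals, 8 by voom with quality weights, 3 with the replicate block, 2 by voom, with no filter, with a minimum of 10 counts or without IgG 2, 3 without antiCD47 4 and 8 without antiCD47 1. It became 0 without IgG 1, IgG 3, IgG 4 or antiCD47 3 (8 to 9 lower at an unadjusted p under 0.05 in edgeR).

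Of 23 further transport genes 2 of 21 tested fell (9.52%, against 5.4% of all genes): Dync2li1, a chain of the retrograde transport dynein (log2 -1.10 ± 0.18, edgeR adjusted p = 0.016), and Kifap3, a subunit of the anterograde kinesin (-0.47 ± 0.13, edgeR adjusted p = 0.0434). Dync2li1 was at 2.86, 2.60, 2.77 and 3.75 CPM in IgG 1 to 4 and at 1.63, 1.15, 1.33 and 1.46 CPM in antiCD47 1 to 4. Every antiCD47 library was well below the lowest IgG library. The count of 2 became 6 with library totals or by voom with quality weights, 4 with the replicate block, 3 by DESeq2 or without antiCD47 1, 1 without IgG 1, IgG 2 or antiCD47 2, and 0 without IgG 3, IgG 4 or antiCD47 3 (5, 4 and 3 lower at an unadjusted p under 0.05 in edgeR). Of 12 further BBSome-related genes none passed by edgeR with TMM scaling, DESeq2 or limma voom, and 0 had an unadjusted p under 0.05 in that edgeR fit. With library totals alone 1 was called lower and 6 were lower at an unadjusted p under 0.05. Ttc8, another BBSome subunit, was at -0.34 ± 0.16 (edgeR adjusted p = 0.175).

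Of the transition zone and primary cilium genes, 46 were tested, 8 fell and none rose (17.4%, against the 5.4% of all genes that fell), with a median of -0.30. Pkhd1, which encodes fibrocystin of the cholangiocyte cilium, fell (log2 -1.05 ± 0.15, edgeR adjusted p = 0.0148), and Anks6 (-1.05 ± 0.19), Cc2d2a (-1.09), Evc (-1.09), Tmem237 (-0.72), Cys1 (-0.65) and Mal (-1.20) were among the others that fell. CC2D2A and TMEM237 are proteins of the transition zone, the gate at the base of the cilium. The count of 8 moved with single libraries: in edgeR it was 15 without antiCD47 1, 4 without antiCD47 2, 1 without IgG 1 or IgG 3 and 0 without IgG 4 or antiCD47 3, where 18 and 17 were lower at an unadjusted p under 0.05. DESeq2 called 15, limma voom 12 and 18 with quality weights, edgeR with library totals 21 and with the replicate block 14.

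Markers of cholangiocytes moved with these genes. Of 24 markers 17 fell (70.8%, against 5.4% of all genes) and none rose (edgeR), with a median of -1.06. Epcam (-1.62), Cftr (-1.35), Krt7 (-0.94) and Sox9 (-0.50) were among those that fell, and Krt19, at 5.95 ± 1.54 and 2.98 ± 1.22 CPM, did not pass (edgeR adjusted p = 0.0537). Pkhd1 is in this list as well. None of the 24 was at 0 in either treatment. Without antiCD47 2, IgG 1 or IgG 3 the count was 9, 4 and 3, and without IgG 4 or antiCD47 3 it was 0 (20 and 19 lower at an unadjusted p under 0.05).

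The summed level of the 24 markers was 757, 617, 728 and 888 CPM in IgG 1 to 4 and 565, 274, 342 and 324 CPM in antiCD47 1 to 4. The order of the libraries within each treatment was that of Foxj1: IgG 4, 1, 3, 2 and antiCD47 1, 3, 4, 2. That likeness was not particular to cholangiocytes. The summed stellate cell and portal fibroblast markers also were highest in IgG 4 (1320 CPM) and antiCD47 1 (815 CPM) within their treatments. They were lowest in IgG 2 (928 CPM) and antiCD47 2 (590 CPM). From IgG to antiCD47 the mean of the marker sum went from 748 ± 111 to 377 ± 129 CPM (SD, n = 4), and that of the 25 motile genes from 128 ± 5.34 to 113 ± 2.67 CPM. These 2 sums are not like measures, since most of the motile sum came from abundant genes. Rsph3b gave 35.7 and 33.5 CPM of it, whereas Rsph9 gave 0.730 and 0.273 CPM. The part of cholangiocyte number in the results for cilium genes was not tested.

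Other cell types moved as well. The summed level of 16 stellate cell and portal fibroblast markers was 928 to 1320 CPM in IgG and 590 to 815 CPM in antiCD47, with 7 of 15 tested markers lower (46.7%, against 5.4% of all genes). That count was 4 without IgG 3 and 0 without IgG 4 or antiCD47 3, where 9 were lower at an unadjusted p under 0.05 (edgeR). Kupffer cell markers (328 to 506 and 603 to 837 CPM, 6 of 10 higher) and neutrophil markers (7.35 to 9.57 and 17.6 to 37.4 CPM, 9 of 9 tested higher) had higher sums in every antiCD47 library, against 5.44% of all genes that were called higher. Those 2 counts ran from 0 to 6 and from 0 to 9 when 1 library was left out, being 0 for both without IgG 4 or antiCD47 3 and for neutrophil markers also without IgG 3 (7 Kupffer and 9 neutrophil markers higher at an unadjusted p under 0.05 in edgeR). They were 1 each without IgG 1, 3 and 6 without IgG 2, and 2 and 4 without antiCD47 2. Hepatocyte markers summed to 75710 to 82000 and 78720 to 93570 CPM. Mesothelial, lymphocyte and endothelial sums overlapped between the treatments. The mesothelial sum is mostly Krt8, and 7 of its 10 markers had a fitted value above 0 (median 1.14), none of them past the threshold in edgeR (1 higher and 1 lower at an unadjusted p under 0.05). Their part in the results was not tested either.

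**Figure D4:**
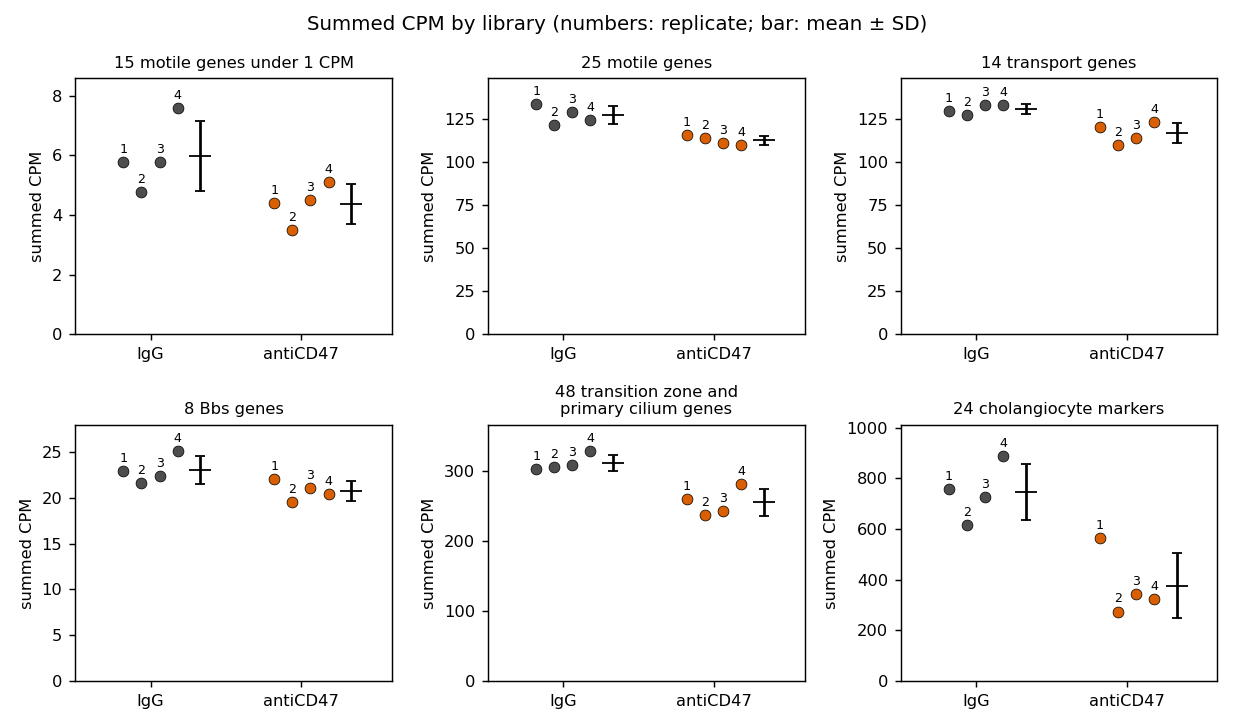
Summed CPM by library for 4 groups of cilium genes, the transition zone and primary cilium genes and 24 cholangiocyte markers; points are libraries numbered by replicate, grey for IgG and orange for antiCD47, and bars are the mean ± SD of 4. Cholangiocyte markers lie at 617 to 888 CPM in IgG and 274 to 565 CPM in antiCD47, with antiCD47 1 the highest of its treatment.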

How the data were processed

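Per the labels' protocols, TruSeq libraries were made from polyadenylated liver RNA, 8 in all. Estimated counts were deposited as whole numbers, without normalization, for each Ensembl gene. In the authors' deposited comparison table the columns are, per the file headers, the mean normalized count (a signal averaged by the authors), log2 fold change, standard error, p-value, its adjusted form and a rank score. Salmon 1.3.0, DESeq2 1.32.0 and build GRCm39 are named in the submitters' processing notes, with no role. Whether counting used strand and which treatment is the reference of the table are not given in the sources used here; only signs and adjusted p-values of the table were used, and the sign was read by its match to the counts.

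Of 54309 genes, 27899 had no count. Columns were matched to libraries by title, with 0 left unused. Libraries of a treatment differed by more than sampling noise (chi-square per degree of freedom at least 24.2). Counts were filtered (filterByExpr), scaled by TMM and tested with glmQLFit and glmQLFTest in edgeR 4.0.16 (R 4.3.3), antiCD47 against IgG, with Benjamini-Hochberg adjustment over 15472 genes and a common dispersion of 0.028. The SE of a log2 fold change was derived from the test statistic. GENCODE M21 gave transcript lengths and exon overlaps. The edgeR, voom and DESeq2 tests were tested on simulated data. Alternatives used DESeq2 1.42.0, limma 3.58.1, other scalings and filters, a replicate block and leaving out libraries. Intervals used scipy 1.17.1 and figures matplotlib 3.10.9.

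The members, gene lists and alternatives were chosen with earlier results of these data known. Genes named with full statistics were Foxj1, members past the threshold and, in each group, the 4 with the smallest p, the 3 highest in CPM and the extremes in fold change; from other lists, those past the threshold or up to 3 with the smallest p. Other members given here were chosen after their values were seen. Single results of some list genes are not reported here.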

Additional observations from a re-analysis of the deposited data

Results flagged for a closer look

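In 3 of 36 sets of 4 libraries, the sets being 18 genes in each treatment, 1 library lay far from the other 3, by Dixon's 95% criterion; chance gives about 1 in 20. Bbs1 was at 1.22 CPM in antiCD47 1 and at 0.857 to 0.906 CPM in the other antiCD47 libraries, so the library with the highest Foxj1 level of its treatment was also the one in which Bbs1 reached the IgG range. Rsph3b was at 37.7 CPM in antiCD47 2 and at 31.9 to 32.5 CPM in the others; its reads can be split with the near-identical Rsph3a. Ift122 was at 5.90 CPM in IgG 4 and at 4.26 to 4.51 CPM in the other IgG libraries.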

How the results depend on the processing

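The direction of Foxj1, Rsph9, Dnah5 and Cfap20 was the same in the 19 alternative fits, which passed in 15, 14, 14 and 14 of them. Counts of called members moved more. With all 46 members 4 were called; the count was 8 by DESeq2, 18 with library totals alone, 14 by voom with quality weights, 9 at an adjusted p of 0.1, and 0 to 10 when 1 library was left out (edgeR; 9 to 20 members had an unadjusted p under 0.05 in those fits). Motile calls (3) became 5 by DESeq2, 8 with totals, 6 with quality weights, 5 at 0.1 and 0 to 7 without 1 library. Transport calls (0) became 2, 7, 6, 2 and 0 to 1, and 1 with upper quartile scaling. Bbs calls (0) became 2 with totals, 1 with quality weights, 1 at 0.1 and 0 to 1 without 1 library. Over all genes, 1678 calls became 3174 by DESeq2, 3581 with totals (428 higher and 3153 lower), 4331 with quality weights, 3574 at 0.1, 502 with a 2-fold minimum, 1090 without IgG 2 and antiCD47 2 together (chosen after seeing the data), and 2 to 3630 without 1 library. The 13 members without overlap became 25 with totals. Library totals alone moved the median of all genes to -0.19, and with them Bbs10 was at -0.11, Bbs12 at -0.093, Rsph3a at -0.065 and Ift20 at -0.015. Bbs12 ran from -0.19 (antiCD47 2 left out) to 0.26 over the fits that leave out 1 library, and was at -0.26 with IgG 2 and antiCD47 2 both left out. The cause of these differences was not tested.

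The libraries share the numbers 1 to 4. Deviations of same-numbered libraries correlated at 0.0316, 0.157, -0.0232 and 0.0345. These low values show no pairing by number, but with 4 libraries per treatment they cannot exclude one. With the replicate number as a block 4 members were called, and 2425 genes in all.

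The dynein heavy chain genes and Cfap44 had under 130 counts over all 8 libraries each, and of these Dnah5 passed.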
